A study of Mus musculus with 20 samples.

Results

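The 10 genes followed here belong to bone morphogenetic protein (BMP) signalling and were measured in fibroadipogenic progenitors (FAPs), stromal cells of skeletal muscle that can turn into fibroblasts or fat cells. They are the ligands Bmp2, Bmp4 and Bmp6, the antagonist Grem1, the receptors Bmpr1a and Bmpr2, the inhibitor Smad6 and the Id genes Id1, Id2 and Id3. The genes were taken by symbol, and all 10 are among the 24419 symbols counted at days 14 and 21 and the 24421 at day 26. The mice were male C57BL/6J animals, and their age is not given in the labels. KPC mice had KPCY cells, a mouse pancreatic tumour line, placed in the pancreas, and control mice had sham surgery, so the tumour in every KPC mouse came from 1 cultured line. FAPs were taken from hindlimb muscle by flow sorting for SCA-1 on live cells without CD31, CD45 or α7-integrin, and their messenger RNA was sequenced. There were 4 KPC and 3 control libraries at day 14, 3 and 3 at day 21, and 3 KPC and 4 control libraries at day 26. The labels call the 20 libraries biological replicates, with no word on pooling of animals.

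BMP ligands are secreted dimers that bring type I and type II receptor kinases together on the cell surface. The activated receptors phosphorylate SMAD1, SMAD5 and SMAD9, which join SMAD4 in the nucleus and switch on target genes, among them the Id genes. ID proteins lack a DNA-binding region and hold basic helix-loop-helix factors away from DNA, while SMAD6 acts inside the cell against the same cascade and antagonists such as gremlin 1 bind the ligands outside it. In mouse skeletal muscle BMP signalling is known to oppose atrophy, and BMPs are known to steer muscle stromal progenitors toward bone and fat fates.

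At day 21, Bmp4, Id1 and Id3 were higher in KPC FAPs and Bmp6 was lower. Id3 stood at 2.96 times its control level, Id1 at 2.02 times, Bmp4 at 1.87 times and Bmp6 at 0.608 times. These were 3 of 9 tested genes called higher, where 6.38% of all genes were called higher, and 1 of 9 called lower, where 6.11% of all genes were called lower. A gene is called where the adjusted p of edgeR's quasi-likelihood test, corrected over all genes of the day, is under 0.05. The same 4 of 9 had an unadjusted p under 0.05 at day 21, against 27.7% of all genes. Grem1 had too few counts to be tested at any day. At day 14 the edgeR test called 0 of 9, where 1.12% of all genes were called, 0.682% higher and 0.435% lower. Of the 9, 2 had an unadjusted p under 0.05 at day 14, Id1 and Smad6, against 14.3% of all genes, and DESeq2 and limma-voom also called 0. At day 26 edgeR called 0 of 9 and 0% of all genes. There 4 of the 9 (Bmp4, Bmp6, Id1 and Id3) had an unadjusted p under 0.05, against 34.3% of all genes. DESeq2 called 3 higher at day 26 (Bmp4, Id1 and Id3), where it called 21.7% of all genes, 13.8% higher. Limma-voom with sample weights called the same 3 higher and Bmp6 lower, where it called 34.3% of all genes, 17.7% higher and 16.6% lower. The values of KPC and control libraries did not overlap for 2 of 9 genes at day 14, both with KPC above, where 7.08% of all genes had KPC above and 6.28% below. At day 21, 3 genes had KPC above, against 15.5% of all genes, and 1 below, against 17.9%. At day 26, 1 gene had KPC above, against 13.8% of all genes, and 2 below, against 15.3%. In either direction 13.4%, 33.4% and 29.1% of all genes did not overlap at days 14, 21 and 26. The median log2 fold change of the 9 genes was 0.02 at day 14, 0.02 at day 21 and 0.05 at day 26, beside 0.01, 0.01 and -0.00289 over all genes tested.

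Libraries held 12.9 to 26.4 megacounts in total. Pdgfra, the usual FAP marker, lay at 1168 to 1709 CPM (counts scaled to the effective size of the library). Ly6a, which encodes the SCA-1 used in the sort, was found in the KPC libraries of day 26 (replicates 1 to 3) at 572, 492 and 1202 CPM, against 1019 to 1428 CPM in the day 26 controls. The mean log2 CPM of 7 FAP markers was 9.31, 9.64 and 10.9 in the same KPC libraries, against 10.9 to 11.1 in the controls. At day 21 it was 10.6 to 10.8 in KPC and 10.98 to 11.1 in controls, without overlap, with Cd34 and Col1a1 called lower and Dcn higher of the 7. Pecam1, which encodes the CD31 used to gate endothelial cells out, lay at 47.0 to 78.2 CPM in KPC and 8.28 to 25.5 CPM in controls at day 14, and at 37.8 to 141 CPM in KPC and 15.1 to 19.7 CPM in controls at day 21. At day 21, 8 of 13 endothelial markers were called higher in KPC and 1 lower, where 6.38% and 6.11% of all genes were, and 12 of 12 immediate-early genes, the fast-induced genes of cell stimulation, were called higher. Mural markers had a mean log2 CPM of 3.78 to 4.15 in KPC and 1.90 to 3.56 in controls at day 14, and 2 of 8 were called higher and 1 lower at day 21. Glial markers had a mean log2 CPM of 3.08 to 3.77 in KPC and 1.39 to 2.64 in controls at day 14, and 1 of 6 was called higher at day 21. The part of these cell types in the results was not tested. Macrophage markers summed to 457, 41.7 and 25.5 CPM in KPC replicates 1 to 3 of day 26, against 18.6 to 28.1 CPM in controls. Of 11 tested, 0 were called there, as 0% of all genes were. At an unadjusted edgeR p under 0.05, 8 were higher, against 34.3% of all genes in either direction. The median log2 fold change of the 11 was 2.97. On the first principal component, which held 47.7% of the variance, KPC replicate 3 of day 26 lay at -3.82, beside 92.3 and 95.1 for the other KPC libraries and -26.0 to -15.9 for the day 26 controls. The number in the library code differed between every KPC and every control library at days 14 and 21, so it and the tumour cannot be told apart there. At day 26 number 227 holds 2 KPC and 3 control libraries. Fits without KPC replicate 3 of day 26, and those within number 227, leave out the KPC library nearest to the controls, so they are no independent test. They called 51.6% and 47.1% of all genes. In bulk RNA of sorted cells, fewer cells of a type and less RNA per cell cannot be told apart.

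Per kilobase of exon, Id3 had the highest level of the 10 genes and Grem1 the lowest. With CPM scaled over the 20 libraries and divided by exon length, Id3 averaged 129 CPM per kb and Bmp4 63.3 CPM per kb. Bmpr1a averaged 19.5 CPM per kb, Bmp2 18.2 CPM per kb and Id2 12.5 CPM per kb. Below these came Id1 at 8.92 CPM per kb, Bmp6 at 7.33 CPM per kb, Bmpr2 at 6.47 CPM per kb and Smad6 at 3.15 CPM per kb. Grem1 averaged 0.0517 CPM per kb. Id3 came first and Bmp4 next in every group but the day 21 controls, where Bmp4 came first and Id3 next.

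**Figure D1:**
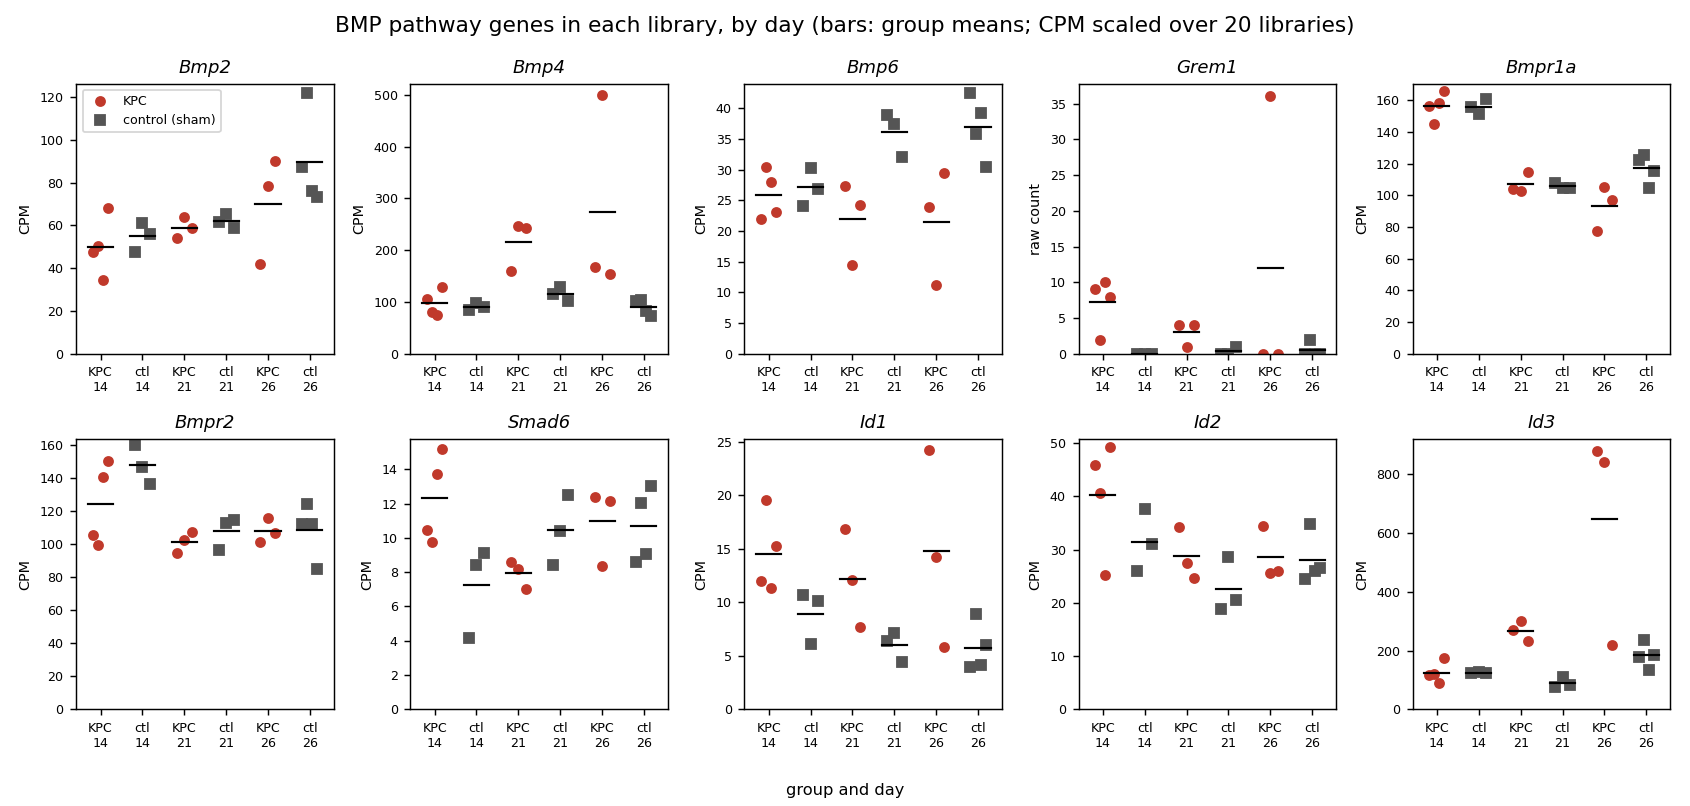
Each point is 1 library, with KPC (red circles) left of control (grey squares) at days 14, 21 and 26; the y axis is CPM scaled over the 20 libraries (raw counts for Grem1) and bars are group means. All 6 KPC libraries of days 21 and 26 lay above the 10 controls for Bmp4, at 153.8 to 500.4 CPM against 73.6 to 128 CPM.

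Bmp4 (chr14:46383520-46390669, minus strand, mm10, protein coding) encodes a ligand that drives stromal progenitors toward bone and fat. The 3 KPC libraries of day 21 held it at 157, 242 and 238 CPM, against 115, 127 and 102 CPM in the controls. Every KPC library was above every control, with means of 212 ± 48.0 CPM in KPC and 114 ± 12.6 CPM in controls (SD, n = 3 each). Bmp4 rose at day 21 (log2 fold change 0.90 ± 0.16 SE, edgeR adjusted p = 0.00485), a call that was lost in the fit of all 20 libraries (0.91, adjusted p = 0.138). Day 26 gave 165, 469.5 and 154 CPM in KPC, against 101, 104, 82.9 and 71.7 CPM in controls. The groups again did not overlap, and KPC replicate 2 alone lay far above the rest. The day 26 log2 fold change was 1.58 ± 0.39 (SE) with an edgeR adjusted p of 0.0674, so Bmp4 was not called. Within library code number 227 it was 1.77 (adjusted p = 0.0177), without KPC replicate 3 it was 1.85 (adjusted p = 0.00542), and without KPC replicate 2 it was 0.85 (adjusted p = 0.162). At day 14 Bmp4 lay at 109, 84.5, 77.2 and 132 CPM in KPC, against 86.7, 101 and 92.1 CPM in controls. The controls fell inside the KPC range, and the log2 fold change was 0.12 ± 0.16 (SE, edgeR adjusted p = 0.806). The order of group means over the 20 libraries put KPC of day 26 first, KPC of day 21 next and the controls of day 21 after them, and of all neighbours in that order only KPC and control of day 21 had ranges that did not overlap. Bmp4 shares 89 exon bases with Gm15217 on the other strand.

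Bmp6 (chr13:38345107-38500302, plus strand) encodes another BMP ligand, known for its control of iron balance in liver. At day 21 it lay at 26.8, 14.1 and 23.9 CPM in KPC, against 38.5, 37.1 and 31.9 CPM in controls. All 3 KPC libraries lay below all 3 controls, the opposite direction to Bmp4. Bmp6 fell at day 21 (log2 fold change -0.72 ± 0.21 SE, edgeR adjusted p = 0.0464). The call is near the threshold: it was lost with library-size scaling alone (adjusted p = 0.0645), when all 20 libraries were fitted at once (0.132), with the mean level of 13 endothelial markers as a covariate (-0.94, 0.191), and for 5 of the 6 libraries left out in turn (0.0734 to 0.158). At day 26 Bmp6 lay at 23.4, 10.5 and 29.4 CPM in KPC, against 41.9, 35.4, 39.0 and 29.6 CPM in controls. The groups did not overlap, although KPC replicate 3 and control replicate 4 were 29.4 and 29.6 CPM, and the log2 fold change of -0.76 ± 0.31 (SE) had an edgeR adjusted p of 0.132. Without KPC replicate 3 it was -1.07 (adjusted p = 0.0189), and within code number 227 it was -1.13 (adjusted p = 0.0327). At day 14 Bmp6 lay at 22.5 to 31.6 CPM in KPC and 24.8 to 31.2 CPM in controls, which overlap (log2 fold change -0.05 ± 0.15 SE, edgeR adjusted p = 0.923). Among control groups, day 21 lay above day 14 without overlap, at 32.1 to 38.9 CPM against 24.1 to 30.3 CPM on the scaling over 20 libraries. Bmp6 shares 224 exon bases with Txndc5 on the other strand.

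Bmp2 (chr2:133552159-133562885, plus strand) encodes the ligand closest to BMP4 and a strong inducer of bone formation. It lay at 53.1, 62.3 and 57.8 CPM in KPC at day 21, against 60.7, 64.7 and 58.5 CPM in controls. At day 26 it lay at 40.8, 73.7 and 89.9 CPM in KPC, against 86.2, 120.5, 75.8 and 71.4 CPM in controls. The groups overlapped at both days, and at day 14 as well (35.4 to 69.5 CPM in KPC, 48.8 to 62.8 CPM in controls). Log2 fold changes were -0.12 ± 0.18, -0.08 ± 0.11 and -0.35 ± 0.28 (SE) at days 14, 21 and 26, with edgeR adjusted p-values of 0.853, 0.702 and 0.384. In the order of its group means, every pair of neighbours overlapped.

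Grem1 (chr2:113746164-113758646, minus strand) encodes gremlin 1, a secreted protein that binds BMP2 and BMP4 and keeps them from their receptors. At day 14 it had 9, 2, 10 and 8 raw counts in KPC, against 0, 0 and 0 in controls. All 4 KPC libraries had counts and no control did, with 29 counts against 0. The KPC level was 6.65-fold that of a floor of 3 counts set over the control group. That value makes no allowance for error in the 29 counts or for spread between libraries. At day 21 there were 4, 1 and 4 counts in KPC, against 0, 0 and 1 in controls, a ratio of 11.98 with an exact 95% interval of 1.66 to 525 for counting error only. At day 26 there were 0, 36 and 0 counts in KPC, against 0, 2, 0 and 0 in controls, a ratio of 27.97 with an interval of 7.20 to 239.8. All the KPC counts of day 26 came from replicate 2, the library in which Bmp4 was highest and Bmp6 lowest. With no filter on low counts, edgeR gave adjusted p-values of 0.1496, 0.449 and 0.176 at days 14, 21 and 26, so the antagonist was not called at any day.

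Neither receptor was called at any day. Bmpr1a (chr14:34410734-34503341, minus strand) encodes the type I receptor that binds BMP2 and BMP4. At day 21 it lay at 100.35 to 113 CPM in KPC and 103 to 107 CPM in controls, and the log2 fold change was 0.02 ± 0.10 (SE, edgeR adjusted p = 0.935). At day 26 it lay at 75.9, 98.7 and 97.3 CPM in KPC, against 121, 124, 104 and 113 CPM in controls. All 3 KPC libraries were below all 4 controls there (on the scaling over 20 libraries the ranges touch, with 105.2 CPM the highest in KPC and 104.7 CPM the lowest in controls), but the log2 fold change of -0.32 ± 0.14 (SE) was not called (edgeR adjusted p = 0.151), and the fit of all 20 libraries gave an adjusted p of 0.0262. At day 14 the ranges were 151 to 169.9 CPM in KPC and 156 to 164 CPM in controls (log2 fold change 0.02 ± 0.09 SE, edgeR adjusted p = 0.957). Across days the controls of day 14 (151.6 to 160.8 CPM on the scaling over 20 libraries) lay above those of day 26 (104.7 to 125 CPM) without overlap. Bmpr2 (chr1:59763400-59879014, plus strand) encodes the type II receptor of BMPs. It lay at 103 to 154 CPM in KPC and 139 to 165 CPM in controls at day 14, at 92.9 to 106 CPM and 95.7 to 114 CPM at day 21, and at 99.1 to 109 CPM and 83.0 to 123 CPM at day 26. KPC and control overlapped at all 3 days, with log2 fold changes of -0.24 ± 0.14, -0.09 ± 0.11 and -0.000258 ± 0.16 (SE) and edgeR adjusted p-values of 0.473, 0.628 and 0.999.

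Smad6 (chr9:63953076-64022059, minus strand) encodes an inhibitory SMAD that is itself a BMP target and acts as a brake on the cascade. At day 14 it lay at 10.8, 10.2, 14.1 and 15.5 CPM in KPC, against 4.30, 8.64 and 9.29 CPM in controls. The 4 KPC libraries were above the 3 controls, and the log2 fold change of 0.78 ± 0.26 (SE) was not called (edgeR adjusted p = 0.179). At day 21 it lay at 8.47, 8.02 and 6.93 CPM in KPC, against 8.34, 10.3 and 12.4 CPM in controls, a log2 fold change of -0.40 ± 0.23 (SE, edgeR adjusted p = 0.296). The groups overlapped at day 21 and at day 26, where the ranges were 7.83 to 12.2 CPM in KPC and 8.49 to 12.7 CPM in controls (log2 fold change 0.05 ± 0.24 SE, edgeR adjusted p = 0.884). Smad6 thus did not pass the test at any day, and its largest difference was at the earliest one.

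Id3 (chr4:136143497-136145755, plus strand) gave the largest log2 fold change of the 9 tested genes at day 21. At that day it lay at 267, 293 and 229 CPM in KPC, against 74.4, 110.5 and 83.8 CPM in controls. All 3 KPC libraries lay far above all 3 controls, with a gap wider than the range of either group. Means were 263 ± 31.8 CPM in KPC and 89.5 ± 18.7 CPM in controls (SD, n = 3 each). Id3 rose at day 21 (log2 fold change 1.56 ± 0.15 SE, edgeR adjusted p = 0.000101) and ranked number 49 of 13154 genes by p. Its log2 fold change stayed between 1.38 and 1.74 in every alternative tried at day 21, with no adjusted p above 0.0261. Day 26 gave 859, 788 and 220.0 CPM in KPC, against 174, 234.33, 135 and 181 CPM in controls. KPC replicates 1 and 2 were the highest of all 20 libraries, while replicate 3 lay inside the control range. The log2 fold change of day 26 was 1.82 ± 0.44 (SE) and was not called (edgeR adjusted p = 0.0645). Without KPC replicate 3, the library that lay with the controls, it was 2.22 (adjusted p = 7.44e-05), and within code number 227 it was 2.24 (adjusted p = 0.000638). KPC replicates 1 and 2, with the highest Id3, were also the libraries with the lowest Ly6a of day 26, and replicate 1 had the highest macrophage sum. The part of either in the Id3 and Id1 values was not tested. At day 14 Id3 lay at 119, 125, 91.1 and 179 CPM in KPC, against 126, 129 and 127 CPM in controls (log2 fold change 0.02 ± 0.17 SE, edgeR adjusted p = 0.972).

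Immediate-early genes moved with Id3. Their summed level was 19475 to 21772 CPM in KPC and 8129 to 9125 CPM in controls at day 21, with 12 of 12 called higher, a median log2 fold change of 1.505 and none of the 12 at 0 in either group. At day 26 the sum was 20540 to 32567 CPM in KPC and 11069 to 16605 CPM in controls, lowest within KPC in replicate 3, where Id3 was lowest too. At day 14 it was 4455 to 11722 CPM in KPC and 5654 to 7139 CPM in controls, highest in KPC replicate 4, which also had the highest Id3 of that day. Their part in the Id3 result was not tested.

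Id1 (chr2:152736251-152737410, plus strand) is the Id gene most often read as a mark of BMP signalling, and it is strongly expressed in endothelium. At day 21 it lay at 16.5, 11.8 and 7.55 CPM in KPC, against 6.35, 7.09 and 4.43 CPM in controls. The groups did not overlap, and KPC replicate 3 was close to the highest control. Id1 rose at day 21 (log2 fold change 1.02 ± 0.31 SE, edgeR adjusted p = 0.0494). At day 14 it lay at 12.4, 20.3, 11.6 and 15.6 CPM in KPC, against 11.002, 6.24 and 10.3 CPM in controls, again without overlap (log2 fold change 0.71 ± 0.24 SE, edgeR adjusted p = 0.174). Day 26 gave 23.7, 13.3 and 5.85 CPM in KPC, against 3.95, 8.85, 4.14 and 5.84 CPM in controls. KPC replicate 3 lay inside the control range there, and the log2 fold change was 1.364 ± 0.48 (SE, edgeR adjusted p = 0.102). Without that library, the lowest of the 3 in Id1, it was 1.73 (adjusted p = 0.00434), and within code number 227, which also lacks it, 1.77 (adjusted p = 0.0155). Without KPC replicate 1, the highest in Id1, it was 0.79 (adjusted p = 0.294). The day 21 call was lost with limma-voom (0.70, adjusted p = 0.105), when all 20 libraries were fitted at once (adjusted p = 0.176) and for 5 of the 6 libraries left out in turn (adjusted p 0.0875 to 0.178). With the mean log2 level of 13 endothelial markers as a covariate the log2 fold change was -0.08 (edgeR adjusted p = 0.940). Id1 thus lost its call and had no clear direction in that fit. Under the same covariate its log2 fold change stayed positive at days 14 and 26. At day 14 the marker mean did not overlap, at 4.53 to 5.15 in KPC and 2.31 to 3.71 in controls. The covariate fit of that day therefore cannot tell the marker level and the tumour apart.

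Pecam1 followed the order of Id1 within KPC at days 21 and 26, but not at day 14. In KPC replicates 1 to 3 of day 21, where Id1 was 16.5, 11.8 and 7.55 CPM, Pecam1 was 141, 83.9 and 37.8 CPM. In the day 21 controls Pecam1 was 19.2, 19.7 and 15.1 CPM. The summed endothelial level at day 21 was 523 to 1032 CPM in KPC and 565 to 604 CPM in controls, with none of the 13 markers at 0. Tek, 1 of the 13, made up most of that sum in controls, at 449.6 to 495 CPM against 293 to 391 CPM in KPC. The mean log2 CPM of the 13 markers did not overlap, at 4.02 to 5.63 in KPC and 3.30 to 3.40 in controls. At day 14, 10 of 13 endothelial markers lay higher in every KPC library than in every control, where 7.08% of all genes did, and 2 were called higher, where 0.682% of all genes were. In KPC replicates 1 to 4 of day 14 Pecam1 was 47.5, 78.2, 56.9 and 47.0 CPM, where Id1 was 12.4, 20.3, 11.6 and 15.6 CPM. Replicate 2 was highest in both, but the other replicates were in a different order. The controls of that day had Pecam1 at 25.5, 16.9 and 8.28 CPM, where Id1 was 11.002, 6.24 and 10.3 CPM. At day 26 Pecam1 was 236, 25.8 and 12.6 CPM in KPC replicates 1 to 3, against 12.7, 15.9, 4.50 and 7.11 CPM in controls, in the same order as Id1 within KPC. KPC replicate 2 of that day, with Id1 at 13.3 CPM, had a mean log2 CPM of 2.95 over the 13 markers, inside the control range of 2.02 to 3.42. Whether endothelial cells had a part in the Id1 values was not tested. At days 14 and 21 the mean marker level did not overlap between KPC and control. The covariate fits of those days cannot tell it and the tumour apart.

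**Figure D2:**
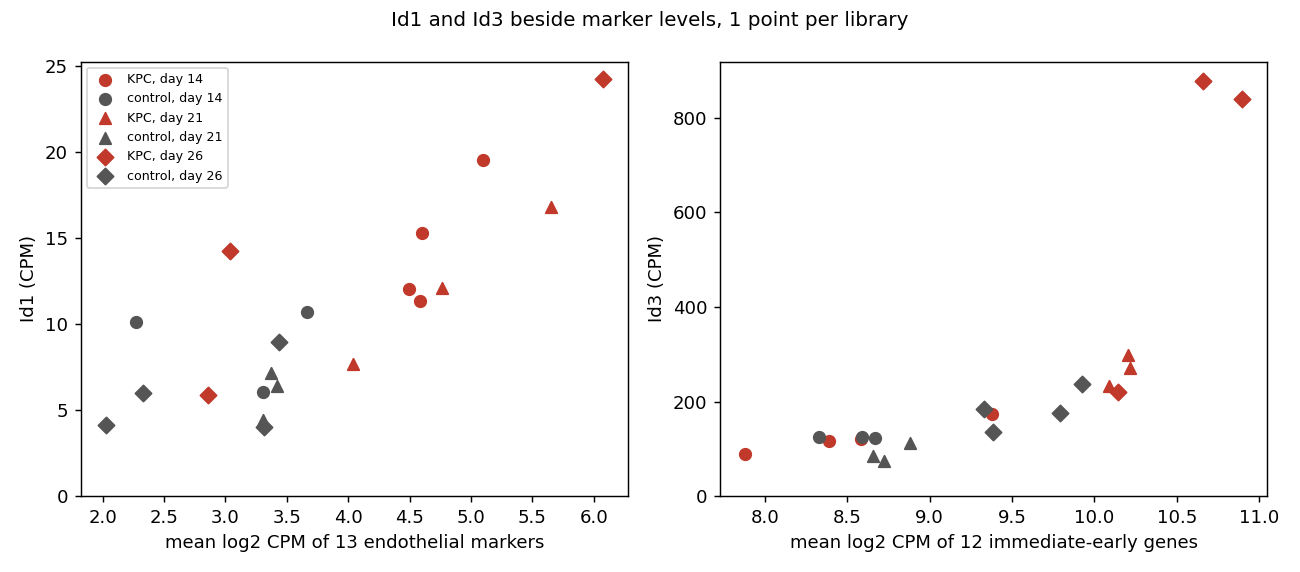
Each point is 1 library: at left Id1 (CPM) against the mean log2 CPM of 13 endothelial markers, at right Id3 (CPM) against the mean log2 CPM of 12 immediate-early genes, all scaled over the 20 libraries, with KPC red and control grey. The KPC libraries with the most Id1 lie to the right on the endothelial axis, except KPC replicate 2 of day 26 near the left, and the pair of KPC libraries of day 26 highest in Id3 lie farthest to the right on the immediate-early axis.

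Id2 (chr12:25093799-25097140, minus strand) encodes an ID protein known for its role in lymphoid and fat cell development. At day 14 it lay at 47.2, 42.2, 25.9 and 50.3 CPM in KPC, against 26.7, 38.6 and 31.6 CPM in controls. At day 21 it lay at 33.6, 26.9 and 24.2 CPM in KPC, against 18.5, 28.4 and 20.4 CPM in controls. At day 26 it lay at 33.6, 24.1 and 25.9 CPM in KPC, against 24.2, 34.5, 25.8 and 25.8 CPM in controls. The groups overlapped at all 3 days. Log2 fold changes were 0.37 ± 0.21, 0.34 ± 0.19 and 0.05 ± 0.18 (SE), with edgeR adjusted p-values of 0.453, 0.271 and 0.866. Id3 and Id1 had larger log2 fold changes than Id2 at days 21 and 26, and the difference between the genes was not tested.

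The promoters of Bmp4 and Id3, which were called higher at day 21 along with Id1, are shown beside that of Id2, which was not called. Each is 300 bases from RefSeq (GRCm38.p6), 250 before the RefSeq start and 50 after, read 5′ to 3′ on the strand of the gene. The RefSeq start can differ from that of the GENCODE gene spans given above. The windows of Id3 and Id2, and those of Bmp6, Bmpr1a and Bmpr2, lie wholly inside those spans. Capitals mark GGCGCC, a GC-rich element bound by SMAD1 and SMAD5, and the SMAD4 box GTCT or its reverse AGAC.
Bmp4, chr14:46390620-46390919, minus strand: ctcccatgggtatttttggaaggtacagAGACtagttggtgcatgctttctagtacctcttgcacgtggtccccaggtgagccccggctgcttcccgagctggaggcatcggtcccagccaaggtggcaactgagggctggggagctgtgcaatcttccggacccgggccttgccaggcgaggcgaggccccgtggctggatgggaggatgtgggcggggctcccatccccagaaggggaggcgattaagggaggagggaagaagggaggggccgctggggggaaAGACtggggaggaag
Id3, chr4:136143572-136143871, plus strand: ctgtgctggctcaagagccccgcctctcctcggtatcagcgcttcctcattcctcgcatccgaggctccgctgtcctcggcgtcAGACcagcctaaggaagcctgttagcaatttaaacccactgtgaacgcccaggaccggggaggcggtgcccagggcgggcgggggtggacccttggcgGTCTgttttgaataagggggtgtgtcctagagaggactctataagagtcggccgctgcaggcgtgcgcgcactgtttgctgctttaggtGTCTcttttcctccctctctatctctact
Id2, chr12:25096043-25096342, minus strand: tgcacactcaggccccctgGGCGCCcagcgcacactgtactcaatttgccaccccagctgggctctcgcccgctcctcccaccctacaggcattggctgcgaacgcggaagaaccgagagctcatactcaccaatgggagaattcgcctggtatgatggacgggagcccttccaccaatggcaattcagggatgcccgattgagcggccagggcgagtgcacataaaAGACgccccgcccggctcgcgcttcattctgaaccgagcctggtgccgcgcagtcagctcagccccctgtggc
The Bmp4 promoter held 2 SMAD4 boxes and the Id3 promoter 3, both without GGCGCC, and the Id2 promoter held 1 of each. Searched on both strands with no overlap between the motifs, GGCGCC was in 11.9% of the 32851 promoters of the table and the SMAD4 box in 88.0%, with both in 9.50%. Of the 8 genes with an entry in the table, Bmpr1a, Bmpr2, Grem1 and Id2 held 1 GGCGCC each, and every one but Bmpr2 held a SMAD4 box. Bmp6 held 4 boxes, Grem1 6, Smad6 2 and Bmpr1a 1. Id1 and Bmp2 are not shown.

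**Figure D3:**
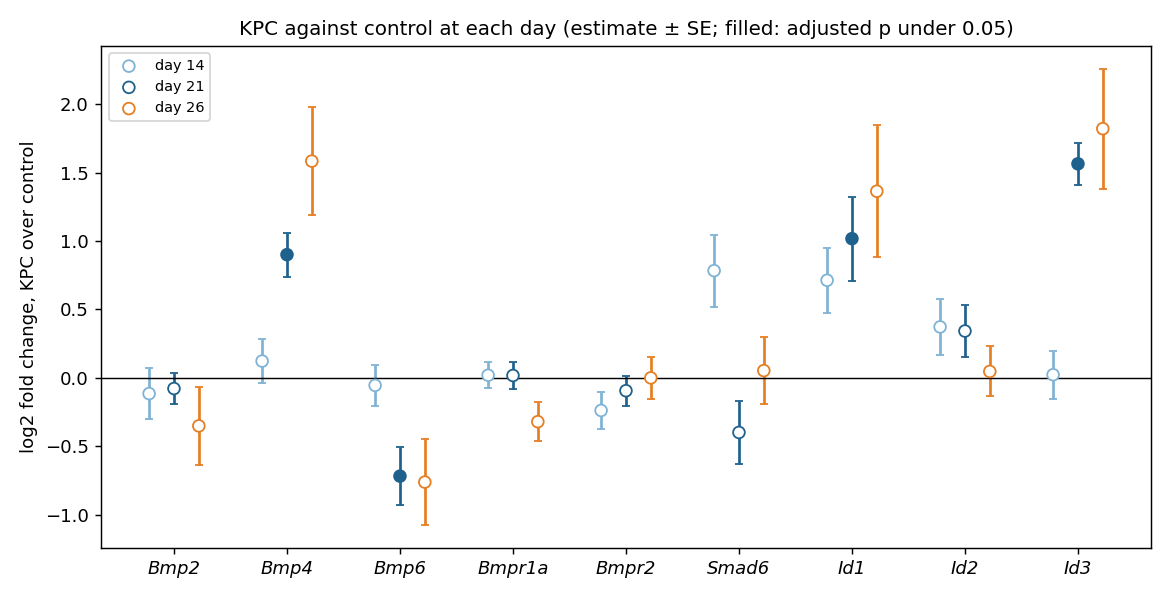
Log2 fold change of KPC over control (y axis) with its SE for the 9 tested genes at days 14, 21 and 26; filled points were called in edgeR. The filled points are Bmp4 (0.90), Bmp6 (-0.72), Id1 (1.02) and Id3 (1.56), all at day 21.

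Whether the KPC effect changed with time was tested in a single fit of all 20 libraries, as the difference between the log2 fold changes of 2 days. The contrasts against day 14 share the libraries of day 14. For day 26 minus day 14, 2 of 9 genes were called, where 14.3% of 14141 genes were called, and 3 of 9 had an unadjusted p under 0.05, against 33.1% of all genes. The Bmp4 effect was larger at day 26 than at day 14 by 1.49 ± 0.44 (SE, log2, edgeR adjusted p = 0.0350), and the Id3 effect by 1.81 ± 0.47 (SE, adjusted p = 0.0218). The Bmp4 difference was lost when any of 10 libraries was left out, and moved most without KPC replicate 2 of day 26 (0.72, adjusted p = 0.122). Without KPC replicate 1 of day 26 the Id3 difference was 1.52 (adjusted p = 0.0622), and without KPC replicate 2 it was 1.58 (adjusted p = 0.0830). For day 21 minus day 14, edgeR called 0 of 9 genes, where 0.644% of all genes were called, and 2 of the 9 had an unadjusted p under 0.05, against 15.1% of all genes. Those were Id3 (1.56 ± 0.49 SE, adjusted p = 0.158) and Smad6 (-1.16 ± 0.38 SE, adjusted p = 0.167), and DESeq2 called Id3 (1.58, adjusted p = 0.0334). Without KPC replicate 3 of day 26, which enters only the shared spread, that Id3 difference had an edgeR adjusted p of 0.00310. For day 26 minus day 21, edgeR called 0 of 9 genes and 0% of all genes. There 1 of the 9, Bmpr1a, had an unadjusted p under 0.05 (-0.35 ± 0.16 SE, adjusted p = 0.361), against 12.9% of all genes. DESeq2 also called 0 of the 9 for that contrast.

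Over the days, the 6 KPC libraries of days 21 and 26 held Bmp4 at 153.8 to 500.4 CPM, the 4 of day 14 at 75.1 to 129 CPM and the 10 controls at 73.6 to 128 CPM, all on the scaling over 20 libraries. Id3 lay at 220.0 to 879 CPM in the later KPC libraries, at 88.7 to 175 CPM in those of day 14 and at 75.2 to 237 CPM in the controls. The controls of Id3 were not constant: those of day 21 (75.2 to 112 CPM) lay below those of day 14 (122 to 126 CPM), and those of day 26 (135.2 to 237 CPM) lay above both, without overlap. Bmp6 lay at 11.2 to 29.4 CPM in the later KPC libraries, at 21.9 to 30.4 CPM in those of day 14 and at 24.1 to 42.4 CPM in the controls. Id1 lay at 5.85 to 24.2 CPM in the later KPC libraries, at 11.3 to 19.5 CPM in those of day 14 and at 4.00 to 10.7 CPM in the controls. So Id1 alone of these 4 genes had the whole of its day 14 KPC libraries above all 10 controls.

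The genes with the pattern most like each member were found by Pearson r of log2 CPM over the 20 libraries, among 11049 genes. Libraries of a day or group are not independent points, and depth differs between libraries, so these values only describe. Id3 ran closest to Pim1 (r = 0.98) and Gadd45b (0.98), and Bmp4 to Inmt (0.97) and Cbx7 (0.96). Bmp6 ran closest to Tsku (0.92), and Bmp2 to Phlda1 (0.88) and Chst1 (0.81). Id1 ran closest to Ednrb (0.89) and Pde2a (0.87), and Id2 to Cd38 (0.80) and Taf9b (0.75). Bmpr1a ran closest to Dynlt3 (0.96) and Ap1s2 (0.96), Bmpr2 to Taok1 (0.89) and Wasl (0.88), and Smad6 to Psmc3ip (0.71) and Frs3 (0.65). Smad6 had the weakest nearest neighbour of the 9.

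The wider pathway was followed in 6 lists that hold 81 measured genes, the members included. At day 21, 7 of 68 tested genes of these lists rose and 11 fell, beside 6.38% and 6.11% of all genes, and the list median was 0.04 beside 0.01. Among 9 ligands, Bmp4 rose and Bmp6 fell. Among 12 receptors and co-receptors 0 rose and 3 fell. These were Neo1, which encodes a receptor that partners with co-receptors of the repulsive guidance family (log2 fold change -1.01, edgeR adjusted p = 0.0164), Acvrl1, a type I receptor (-0.46, adjusted p = 0.0484), and Rgma, a BMP co-receptor (-0.34, adjusted p = 0.0499). With library-size scaling alone, 1058 of all genes rose and 613 fell at day 21, against 839 and 804 with TMM scaling.

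Secreted antagonists and modulators moved in both directions at day 21, where 2 of 14 rose and 3 fell, beside 6.38% and 6.11% of all genes. Chrdl1, which encodes a chordin-like BMP antagonist, lay at 102, 116 and 111 CPM in KPC, against 24.2, 39.5 and 41.7 CPM in controls (log2 fold change 1.65 ± 0.18 SE, edgeR adjusted p = 0.000324). At day 14 it had gone the other way, at 53.0 to 61.7 CPM in KPC and 71.8 to 113 CPM in controls (-0.65 ± 0.14 SE, adjusted p = 0.0390), the only call among the 69 genes tested at that day, where 1.12% of all genes were called. Of the 69, 13 were higher and 4 lower at an unadjusted p under 0.05, against 14.3% of all genes in either direction. The effect at day 21 exceeded that at day 14 by 2.33 ± 0.30 (SE, log2, edgeR adjusted p = 0.000929). The control level itself differed between those days without overlap, at 69.8 to 110.2 CPM at day 14 and 24.5 to 42.002 CPM at day 21 on the scaling over 20 libraries. Fst, which encodes the activin and BMP binder follistatin, also rose at day 21 (0.44, adjusted p = 0.0132). The genes that fell were Kcp, which encodes a chordin-family protein that enhances BMP binding (-1.17, adjusted p = 0.000275), Fstl1, a follistatin-like BMP binder (-1.09, adjusted p = 0.000559), and Chrd, which encodes chordin (-0.74, adjusted p = 0.00133).

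Inside the cell, 2 of 13 SMADs and inhibitors rose at day 21 and 2 fell. Of all genes 6.38% rose and 6.11% fell, shares that also stand beside the counts of targets and partners below. Bambi, a decoy receptor that BMP signalling induces, lay at 15.6, 12.7 and 14.4 CPM in KPC, against 5.61, 6.67 and 6.70 CPM in controls (log2 fold change 1.18 ± 0.21 SE, edgeR adjusted p = 0.00364). Smad7, the other inhibitory SMAD, lay at 28.5, 42.03 and 37.1 CPM in KPC, against 22.1, 21.4 and 24.5 CPM in controls (0.67 ± 0.16 SE, adjusted p = 0.0184). Neither gene overlapped between the groups. Ski, a nuclear corepressor of SMADs (-0.54, edgeR adjusted p = 0.0113), and Smurf1, a ubiquitin ligase that removes BMP SMADs (-0.42, adjusted p = 0.0256), fell. The target list, which shares Smad6, Smad7 and Bambi with the list of SMADs, had 4 of 15 genes higher at day 21 (Id1, Id3, Smad7 and Bambi) and 1 lower. The one that fell was Msx1, a homeobox gene induced by BMPs in limb and tooth (-1.04, adjusted p = 0.00897). The median log2 fold change of the 15 targets was 0.60 at day 21, beside 0.01 over all genes. Of 8 basic helix-loop-helix partners of ID proteins, 0 rose and 1 fell, Tcf3, which encodes the E proteins E12 and E47 (-0.44, adjusted p = 0.0210).

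At day 26 edgeR called 0 of 67 genes of the lists, as it called 0% of all genes. Of the 67, 17 were higher and 7 lower at an unadjusted p under 0.05, against 34.3% of all genes in either direction, and the median of the targets was 0.86 beside -0.00289 over all genes. For day 26 minus day 14, 10 of 71 pathway genes were called (14.1%), 7 higher and 3 lower, a share near the 14.3% of all genes. Besides Bmp4 and Id3, the KPC effect was higher at day 26 for Runx2, a master factor of bone formation (difference 1.78 ± 0.47 SE, log2, edgeR adjusted p = 0.0207), Smad7 (1.68 ± 0.32 SE, adjusted p = 0.00861) and Tgfbr3, a co-receptor (0.99 ± 0.27 SE, adjusted p = 0.0237). It was also higher for Tob1, which encodes an antiproliferative protein that restrains BMP SMADs (0.78, edgeR adjusted p = 0.0449), and Smad1, a BMP signal carrier (0.77, adjusted p = 0.0193). It was lower for Msx1 (-1.42 ± 0.35 SE, edgeR adjusted p = 0.0178), Fstl1 (-1.31 ± 0.39 SE, adjusted p = 0.0320) and the type I receptor gene Acvr1 (-0.46 ± 0.14 SE, adjusted p = 0.0388). For day 21 minus day 14, 1 of 71 was called, Chrdl1, and for day 26 minus day 21 edgeR called 0 of 71, with 9 at an unadjusted p under 0.05, against 12.9% of all genes. Smad7 lay at 29.0 to 83.0 CPM in the 6 KPC libraries of days 21 and 26 and at 18.6 to 26.6 CPM in the 10 controls, on the scaling over 20 libraries, with no overlap. Bambi lay at 12.4 to 32.2 CPM in the same KPC libraries and at 5.67 to 12.9 CPM in the controls, which overlap.

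**Figure D4:**
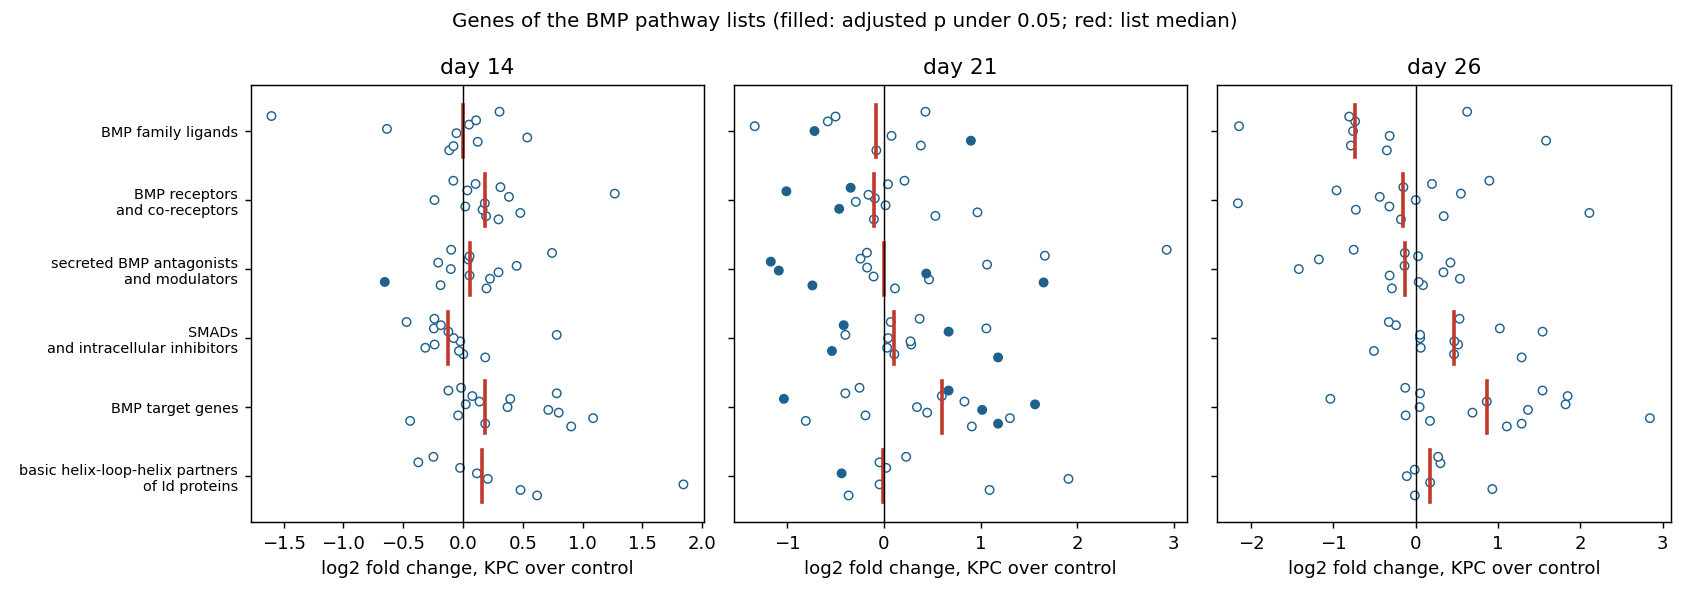
Log2 fold change of KPC over control (x axis) for each tested gene of the 6 BMP pathway lists at days 14, 21 and 26; filled points were called in edgeR and red lines are list medians. The target list has its median at 0.19, 0.60 and 0.86 at the 3 days, while the ligand list has its median at -0.00223, -0.08 and -0.74.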

How the data were processed

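RNA of sorted FAPs was sequenced as stranded mRNA libraries, read in pairs, per the labels' protocols. The authors deposited 1 table of raw counts per gene symbol for each day, with no normalization. The submitters' processing notes name bcl2fastq 2.20, Bowtie, STAR, DESeq2 1.36.0, R 4.2.1 and build mm10, while the sources used here name no counting program, annotation or strand setting. Reads of genes that overlap on opposite strands are therefore uncertain.

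KPC and control were compared within each day with edgeR 4.0.16 (R 4.3.3), using TMM scaling, filterByExpr (minimum count 10, total 15), a robust 2-sided quasi-likelihood test and Benjamini-Hochberg adjustment over all genes. Differences between days came from 1 fit of 6 groups. SE is the absolute log2 fold change over the square root of F. CPM use the scaling of their day unless the scaling over 20 libraries is named. The alternatives were DESeq2 1.42.0, limma-voom 3.58.1, other scalings, filters and samples, an endothelial covariate and a replicate block. The code was tested on simulated data. No pair of libraries of a group was identical: chi-square per degree of freedom was 12.1 to 383. Positions and exon lengths come from GENCODE vM21. Depth was 12.9 to 26.4 megacounts per library; intervals and floors (3 counts) cover counting error only.

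All members are named, with every called gene of the pathway lists, the sort markers and the 2 genes nearest to each member by r, taken where log2 CPM averaged 1 or more (prior count 2); 1 of these nearest genes is not reported here. Members and lists were chosen with earlier results of these data known.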

Additional observations from a re-analysis of the deposited data

Results flagged for a closer look

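In the day 26 controls, replicate 2 lay apart from the other 3 libraries for Grem1 (0.0983 CPM, which is 2 counts, where the others had 0) and for Id2 (34.5 CPM, where the others lay at 24.2 to 25.8 CPM). For Id2 the gap to the nearest library made up more of the whole range than Dixon's 95% critical value for 4 samples. For Grem1 that is fixed once the other 3 libraries are at 0, so it says nothing more than the 2 counts. A gap of this size was seen in 2 of 20 groups of 4 libraries, and chance gives it in about 1 in 20 groups of continuous values, a rate that does not hold for such low counts. The same library also had the highest Bmp2, Id1 and Id3 of the day 26 controls, at 120.5, 8.85 and 234.33 CPM.

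The KPC effect differed between days 26 and 14 for Bmp4 by 1.49 and for Id3 by 1.81 on the log2 scale, in the test of the difference itself. That test called 14.3% of all genes. The Bmp4 call was lost in 12 alternatives and kept in 12, and the Id3 call was lost in 2 and kept in 22.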

How the results depend on the processing

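At day 14, 149 of all genes were called, against 600 with DESeq2, 278 with no filter on low counts, 649 with limma-voom, 2 in the fit of all 20 libraries, 2 with the endothelial covariate, and 40 to 255 with 1 library left out. None of these alternatives called any of the 9 genes at day 14. The endothelial covariate did not overlap between KPC and control at that day. Small effects changed sign there: with limma-voom, Bmpr1a was -0.0095 and Id3 -0.025, and with 1 library left out Bmp2 ranged from -0.29 to 0.016, Bmp4 from -0.030 to 0.22, Bmp6 from -0.15 to 0.026, Bmpr1a from -0.0066 to 0.048 and Id3 from -0.17 to 0.15.

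At day 21, 1643 of all genes were called, against 436 in the fit of all 20 libraries, 598 with the endothelial covariate, and 717 to 2644 with 1 library left out. The 9 genes gave 1 higher and 0 lower in the fit of all 20 libraries, and 0 lower with library-size scaling alone or with the covariate. With 1 library left out, 2 to 3 were higher and 0 to 1 lower. The covariate did not overlap between KPC and control at day 21, so it and the tumour cannot be told apart well with 6 libraries. Under it the sign changed for Bmp2 (0.029), Bmpr2 (0.077), Id1 (-0.084) and Id2 (-0.10), and Bmpr1a ranged from -0.034 to 0.054 with 1 library left out.

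At day 26, where edgeR called 0 of all genes, DESeq2 called 2838, limma-voom 4519, the fit of all 20 libraries 4889, code number 227 alone 6287, and 0 to 6972 were called with 1 library left out. Of the 9 genes, 3 were higher with DESeq2, 3 higher and 1 lower with limma-voom and with code number 227 alone, and 3 higher and 2 lower in the fit of all 20 libraries. With 1 library left out the counts were 0 to 3 higher and 0 to 1 lower. Signs changed for Bmpr2 with DESeq2 (0.0065) and library-size scaling (0.035), and for Smad6 (-0.043) and Id2 (-0.14) with the covariate. With 1 library left out Bmpr2 ranged from -0.10 to 0.077, Smad6 from -0.048 to 0.23 and Id2 from -0.11 to 0.18.

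Between days 21 and 14, DESeq2 called 1 gene higher, where it called 3.08% of all genes, and 0 to 1 were called with 1 library left out, where 0.165% to 6.55% of all genes were. Between days 26 and 14, 2 genes were called, against 1 with no filter (9.22% of all genes) and 0 to 2 with 1 library left out, with 0 to 1 lower (3.21% to 40.4% of all genes). The cause of these differences was not tested.

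The labels do not say that equal replicate numbers pair the samples. Deviations of same-numbered KPC and control libraries correlated at -0.115 to 0.147, and those of different numbers at -0.214 to 0.164. With so few libraries these values cannot tell whether the numbers pair samples. With the replicate block, 361 genes were called at day 14, and Bmp4 (-0.044), Bmpr1a (-0.0033) and Id3 (-0.19) changed sign there. The block left 3 genes higher and 1 lower at day 21 and gave 0 calls at day 26. In the differences between days it called 1 gene higher for days 21 and 14, where it called 0.679% of all genes, and 1 for days 26 and 14, where it called 5.86%.

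Across all alternatives to the KPC effects within a day, 310 values of single genes kept direction and side of the threshold, 20 newly passed it, 16 lost it and 32 changed sign. The 310 include genes that were not called in the main fit and stayed so. All 16 losses fell on calls of day 21: Bmp6 lost its call in 8 alternatives, Id1 in 7 and Bmp4 in 1. Id1 also changed sign in 1, and Id3 kept its call in all 13. Depth limits Grem1 most, with 0 to 36 counts per library.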

Other observations

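Several pathway genes outside the 10 had values short of the threshold and are given because of them, chosen after their values were seen. Bmp7, which encodes a ligand known for brown fat and kidney development, averaged 18.1 CPM in KPC and 46.1 CPM in controls at day 21 (log2 fold change -1.34, edgeR adjusted p = 0.161). At day 26 it averaged 9.28 CPM in KPC and 41.7 CPM in controls (-2.15, adjusted p = 0.0857). Every KPC library lay below every control at both of these days. At day 14 the Bmp7 log2 fold change was -0.64 (edgeR adjusted p = 0.206), with overlap. Bmp5, a ligand gene, averaged 98.2 CPM in KPC and 68.2 CPM in controls at day 14 (0.54, edgeR adjusted p = 0.0654), also without overlap, but had 0.079 at day 21 (adjusted p = 0.800) and -0.32 at day 26 (adjusted p = 0.650), with overlap at both. Atoh8, a transcription factor gene of the target list, had log2 fold changes of 0.90, 0.91 and 1.11 at days 14, 21 and 26 (edgeR adjusted p = 0.106, 0.0749 and 0.112). Among antagonists at day 21, Nog, which encodes noggin, had 1.67 (edgeR adjusted p = 0.0871), beside 0.74 at day 14 (adjusted p = 0.578) and -0.13 at day 26 (adjusted p = 0.874). The level of Nog was low, with means of 2.51 CPM in KPC and 0.798 CPM in controls at day 21.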
